A study of Macaca radiata with 4 samples.

Results

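GATA4, GATA6, FOXO1, CEBPA, CEBPB, CEBPD, KLF4, KLF6, KLF9 and KLF10 encode transcription factors of the ovary. The genes were chosen by name, with earlier results of these data known. Probe sets were taken where their single gene symbol in the array's annotation was one of these names, which gave 20 probe sets for 9 of the 10 genes, out of 14132 genes with such a probe set. KLF9 was not matched and was not analysed here. The 20 probe sets comprised 6 for KLF6, 3 each for GATA4 and CEBPA, 2 each for CEBPB and KLF4, and 1 each for GATA6, FOXO1, CEBPD and KLF10. All 20 lay above the filter on mean signal, a signal of 90.7.

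Female bonnet monkeys (Macaca radiata) gave the corpora lutea, and their RNA was measured on arrays designed for the rhesus macaque. Every animal of both groups received CET, as the labels name it, on luteal day 7 at a dose of 150 µg/kg, which by the labels inhibits secretion of the animal's own LH. After 24 h the control group was injected with PBS (arrays PBS 1 and PBS 2) and the other group with 20 IU/kg of rhLH (arrays rhLH 3 and rhLH 4), and the tissue was collected 8 h later. No group without CET is analysed here, the animals' ages are not given, and p-values measure only the spread between these 4 arrays because the labels do not say which animal each came from.

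GATA factors bind the promoters of ovarian steroidogenic genes through zinc fingers, and GATA6 is the family member usually described in luteal cells. C/EBP factors pair through a leucine zipper, and CEBPA and CEBPB are known as mediators of the LH surge when follicle cells become luteal cells. FOXO1 is held out of the nucleus by the kinase AKT and is known in granulosa cells as a brake on steroidogenic genes. Krüppel-like factors (KLFs) share zinc fingers that bind GC-rich DNA, and several are early responders to hormones, serum or TGF-beta.

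PBS 1 stood apart from the other arrays. Its Pearson correlation with them across kept probe sets was 0.752 to 0.780, whereas they correlated with each other at 0.940 to 0.947. The ratio of the 3′ to the 5′ probe set of beta-actin, a measure of how intact the labelled RNA was, reached 11.2 on PBS 1, compared with 1.49 to 1.59 elsewhere. The same ratio for GAPDH was 3.23 against 1.62 to 2.28. The part of RNA quality in the differences below was not tested, and each difference is therefore given against PBS 1 and against PBS 2 separately. STAR and HSD3B2, which mark steroidogenic luteal cells, ranked at the 99.7 percentile of probe sets or higher on every array. LHCGR, CYP11A1, SCARB1 and FSHR were not matched and were not analysed here.

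**Figure D1:**
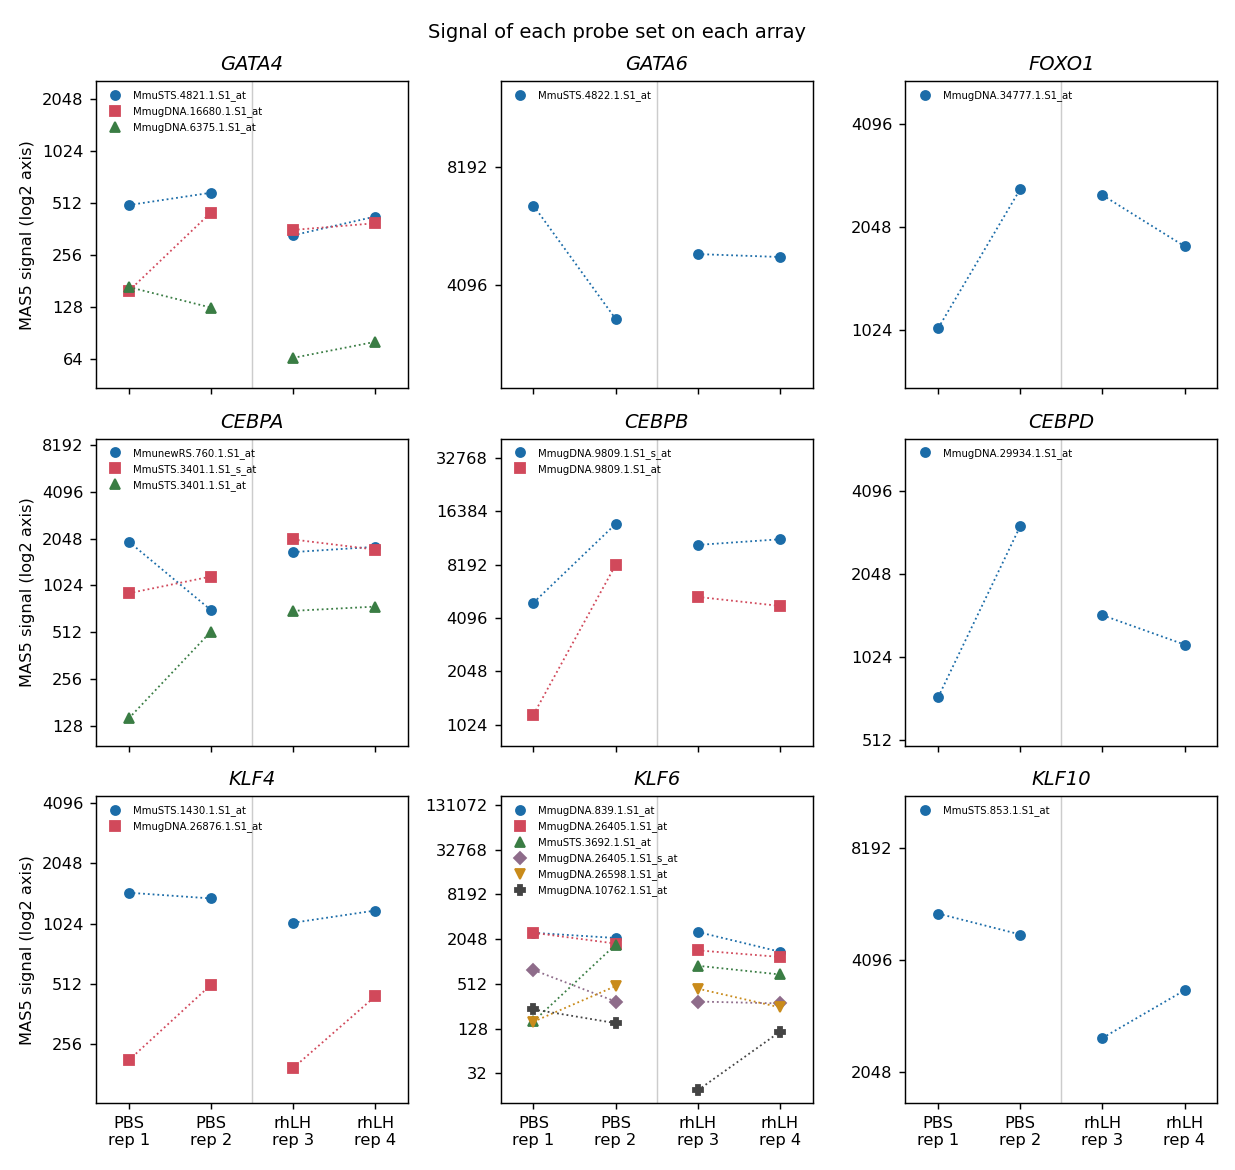
MAS5 signal (y axis, log2 scale, a separate range in each panel) of each probe set on the 4 arrays (x axis), with 1 panel per gene. Symbols stand for probe sets and dotted lines join the replicates of a group. For CEBPB, CEBPD and FOXO1 the rhLH signals lie between the PBS signals, while for KLF10 both rhLH signals (2525 and 3393) lie under both PBS signals (5457 and 4794). Signals of different probe sets are not comparable as transcript levels.

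No probe set of these 9 genes passed the test for a difference between rhLH and PBS (limma with Benjamini-Hochberg adjustment over 31659 kept probe sets, adjusted p from 0.919 to 0.981), and 0% of all kept probe sets passed it. At an unadjusted limma p under 0.05 stood 2 of the 20, CEBPA MmuSTS.3401.1.S1_s_at and KLF10 MmuSTS.853.1.S1_at, beside 2.02% of all kept probe sets. The unadjusted p of CEBPA was no longer under 0.05 in 5 of the 12 alternative settings and that of KLF10 in 7, with 0.082 and 0.100 in limma without a trend and 0.062 and 0.084 with array weights. Both rhLH arrays lay below both PBS arrays for 7 of the 20 (17.7% of all kept probe sets) and above both for 2 (14.4%). These 7 were probe sets of KLF6 (3), GATA4 (2), KLF4 and KLF10, and the 2 were probe sets of CEBPA. By the rule of at least 2-fold between every rhLH and every PBS array, 0 of the 20 were higher, beside 0.344% of all kept probe sets, and 0 were lower, beside 0.49%.

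The median log2 difference over the 20 probe sets, taken on log2(signal + 16), was −0.05, and over all kept probe sets it was −0.04. It was 0.14 against PBS 1 and −0.39 against PBS 2, where all kept probe sets had medians of −0.12 and −0.02. Against PBS 1, 10 of the 20 were higher with rhLH (45.5% of all kept). Against PBS 2, 4 of the 20 were higher (48.6% of all kept), namely the 3 probe sets of CEBPA and that of GATA6. For 10 of the 20 the sign depended on which PBS array served as the control, beside 47.9% of all kept. The PBS arrays differed from each other by a median of 1.27 on the log2 scale over the 20 probe sets, and the rhLH arrays by 0.27. Over all kept probe sets these medians were 0.74 and 0.29. With 2 arrays against 2, an exact two-sided permutation test of a single probe set cannot give a p below 0.333.

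**Figure D2:**
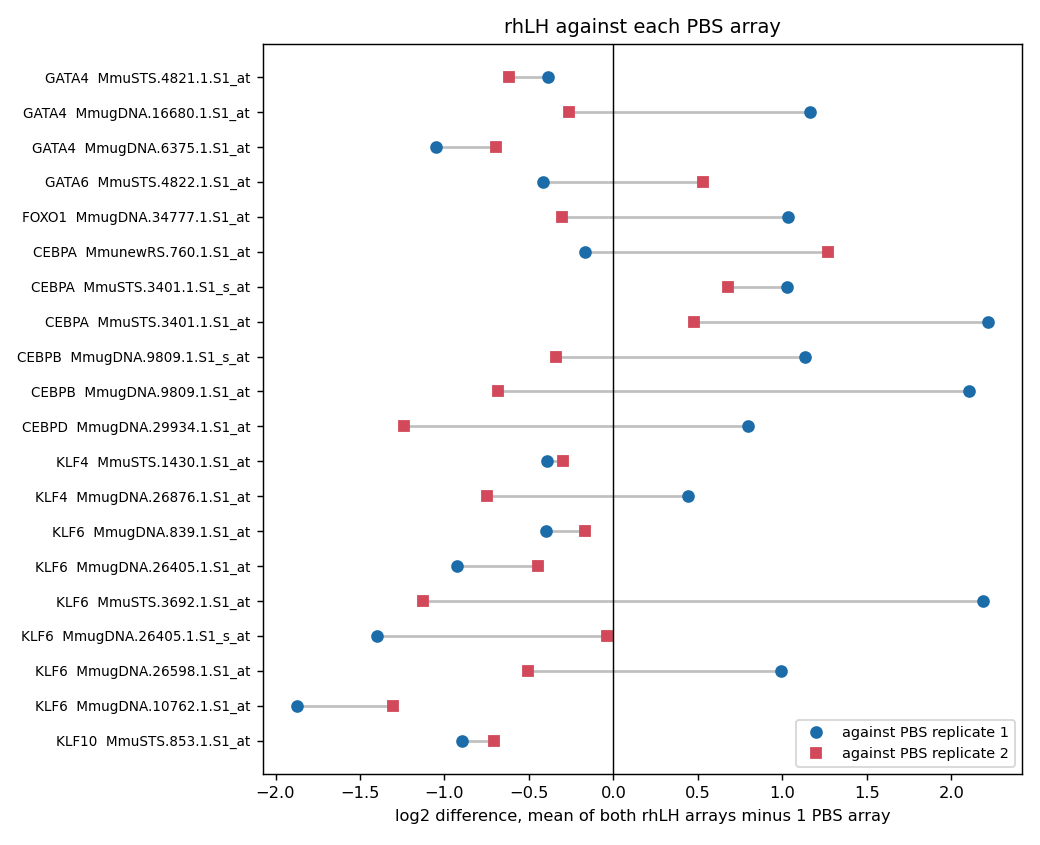
Log2 difference (x axis) of the mean of both rhLH arrays from PBS 1 (circles) and from PBS 2 (squares) for each of the 20 probe sets (y axis), joined by a grey line. Lines that cross 0, 10 of the 20, mark probe sets whose direction depends on the control array. The lines of KLF10 (−0.89 and −0.71) and of CEBPA MmuSTS.3401.1.S1_s_at (1.03 and 0.68) stay on a single side.

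GATA4 and GATA6 encode the zinc finger factors of granulosa and luteal cells. GATA6 signals were 6518 and 3364 with PBS, and 4911 and 4829 with rhLH. The rhLH signals lay between the PBS signals and differed from each other by 0.02 on the log2 scale, against 0.95 between the PBS arrays. The log2 difference between groups was 0.06 (SE 0.41, 95% interval −0.95 to 1.06, limma), made up of −0.42 against PBS 1 and 0.53 against PBS 2.

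GATA4 gave 3 probe sets that did not share a direction. MmuSTS.4821.1.S1_at had signals of 496 and 584 with PBS and of 331 and 425 with rhLH, a mean of 378 ± 66.5 (SD, n = 2) against 540.1 ± 62.6, so both rhLH arrays were lower. Its log2 difference was −0.50 (SE 0.39, 95% interval −1.47 to 0.46). MmugDNA.6375.1.S1_at had signals of 166 and 126 with PBS and of 64.6 and 80.0 with rhLH, a log2 difference of −0.87 (SE 0.59). Its rhLH signals lay under the filter level of 90.7, so that this probe set is near the dim end of those kept. MmugDNA.16680.1.S1_at had 158 and 449 with PBS and 356 and 389 with rhLH, with the rhLH arrays between the controls (log2 1.16 against PBS 1 and −0.26 against PBS 2). Against PBS 2 alone all 3 GATA4 probe sets were lower with rhLH, by differences of −0.62, −0.69 and −0.26.

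FOXO1, the forkhead factor controlled by AKT, had signals of 1037 and 2650 with PBS and of 2542 and 1800 with rhLH. The rhLH signals lay between those of the controls. The log2 difference was 0.36 (SE 0.51, 95% interval −0.90 to 1.62, limma), made up of 1.03 against PBS 1 and −0.31 against PBS 2. The rhLH arrays themselves were 0.49 apart, more than the difference from PBS 2.

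The C/EBP genes differed from each other in pattern. CEBPA, which drives differentiation programmes and halts proliferation in several tissues, was the sole gene of the 9 with a probe set on which both rhLH signals exceeded both PBS signals. Its probe set MmuSTS.3401.1.S1_s_at had signals of 913 and 1169 with PBS and of 2020 and 1741 with rhLH, a mean of 1880 ± 197 (SD, n = 2) against 1041 ± 181. This was a 1.80-fold higher level with rhLH (log2 0.85, SE 0.33, 95% interval 0.045 to 1.66 before adjustment; limma adjusted p = 0.919). It was 2.04-fold higher than PBS 1 and 1.60-fold higher than PBS 2.

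MmuSTS.3401.1.S1_at, named for the same target sequence and so not independent of the first, had signals of 144 and 518 with PBS and of 704 and 749 with rhLH. Both rhLH arrays were again higher, with a log2 difference of 1.35 (SE 0.63), of which the part against PBS 1 was 2.22 and that against PBS 2 was 0.48. The suffix _s_at marks probe sets whose probes match more than a single transcript. The third CEBPA probe set, MmunewRS.760.1.S1_at, had signals of 1957 and 712 with PBS and of 1676 and 1813 with rhLH. Here PBS 1 was the highest array, and the groups overlapped (log2 −0.17 against PBS 1 and 1.27 against PBS 2). Against PBS 2 alone, all 3 CEBPA probe sets were higher with rhLH, by 1.60-fold, 1.39-fold and 2.42-fold, while in the limma fit without PBS 1 the lowest adjusted p of these was 0.319 and 0% of all kept probe sets passed in either direction.

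CEBPB, induced by cAMP and LH in granulosa cells and by inflammatory signals in macrophages, showed the reverse against PBS 2. Its probe set MmugDNA.9809.1.S1_s_at had signals of 4992 and 13868 with PBS and of 10571 and 11374 with rhLH. MmugDNA.9809.1.S1_at, from the same target, had 1167 and 8150 with PBS and 5381 and 4788 with rhLH. On both probe sets PBS 1 was the lowest array and PBS 2 the highest, so the groups overlapped. The log2 differences were 1.13 and 2.11 against PBS 1, and −0.34 and −0.68 against PBS 2. The limma estimates over all 4 arrays, 0.40 (SE 0.53) and 0.71 (SE 0.87), lie between these opposite values.

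CEBPD, an acute phase factor that responds to glucocorticoids and cytokines, had the same order of arrays. Its signals were 734 and 3055 with PBS and 1453 and 1137 with rhLH. The log2 difference was 0.80 against PBS 1 and −1.24 against PBS 2, a 2.36-fold lower level. The 95% interval over all arrays ran from −1.88 to 1.44 (limma adjusted p = 0.957). Macrophages also express CEBPB and CEBPD. Of 10 listed macrophage and lymphocyte markers 6 were matched, and their summed signals, led by TYROBP and CD68, were 3464 and 6681 with PBS and 10642 and 4786 with rhLH. All 6 overlapped between the groups, and their part in the CEBPB and CEBPD values was not tested. In a bulk sample, fewer cells of a type and less RNA per cell cannot be told apart.

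**Figure D3:**
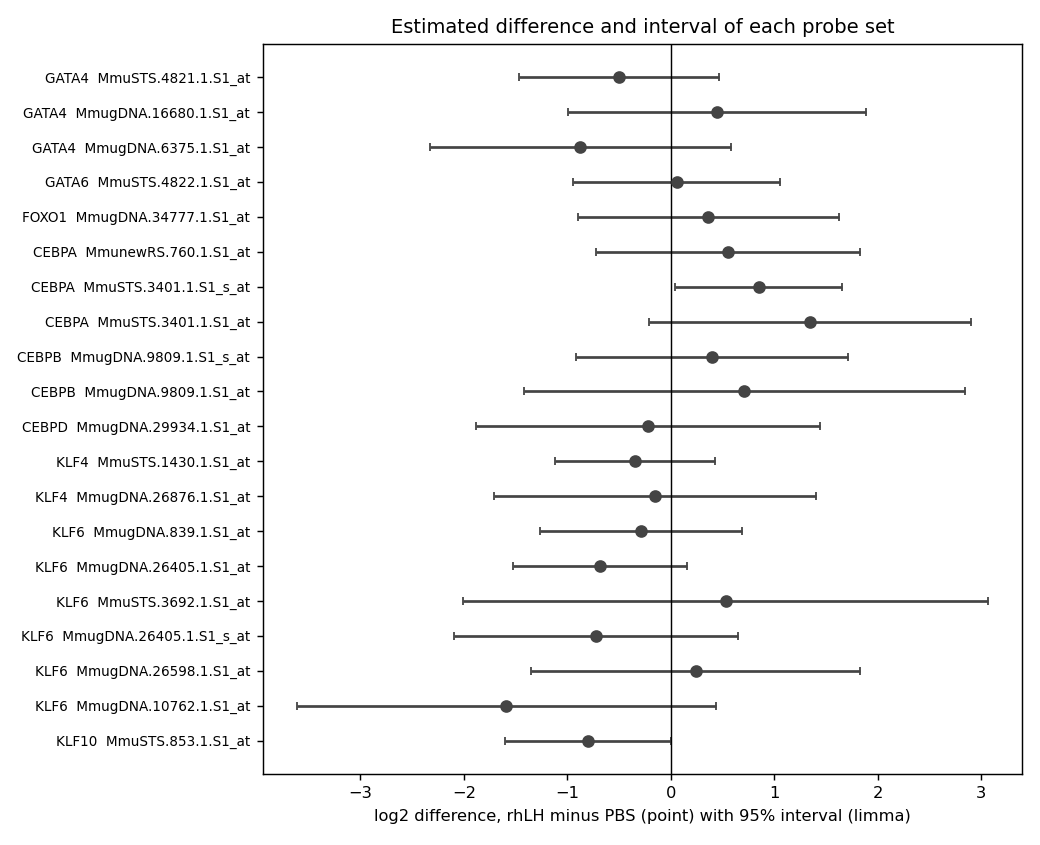
Log2 difference of rhLH from PBS (points) with its unadjusted 95% interval from limma (bars) for each of the 20 probe sets (y axis). The intervals of CEBPA MmuSTS.3401.1.S1_s_at and of KLF10 lie on a single side of 0, the latter with its upper end at −0.00053, and the other 18 include 0. In limma without a trend both of these intervals also include 0 (unadjusted p 0.082 and 0.100).

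KLF10, a repressor first described as an early gene of TGF-beta signalling, was lower on both rhLH arrays. Its signals were 5457 and 4794 with PBS and 2525 and 3393 with rhLH, a mean of 2959 ± 613 (SD, n = 2) against 5125 ± 469. The level with rhLH was 1.74-fold lower (log2 −0.80, SE 0.33, 95% interval −1.60 to −0.00053; limma adjusted p = 0.919), and the differences against the PBS arrays were −0.89 and −0.71. The PBS arrays lay 0.19 apart on this probe set and the rhLH arrays 0.42 apart, each less than the difference between groups. KLF10 was the sole gene whose every probe set kept its sign under all 12 alternative settings, with log2 differences from −1.01 to −0.57, but it is measured here by 1 probe set.

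KLF4, a factor of endothelial, epithelial and smooth muscle cells, had 2 probe sets. MmuSTS.1430.1.S1_at had signals of 1462 and 1370 with PBS and of 1036 and 1191 with rhLH, both lower (log2 −0.34, SE 0.31, 95% interval −1.12 to 0.43). On MmugDNA.26876.1.S1_at the arrays of each group disagreed, at 214 and 508 with PBS and 195 and 445 with rhLH. Its log2 difference of −0.15 took the opposite sign without rhLH 3 (0.41) and without PBS 2 (0.44), and also after quantile normalization (0.064) and median centring (0.074). Of 10 endothelial markers 9 were matched, with summed signals of 22398 and 25576 with PBS and of 23490 and 27010 with rhLH. Of these 9, TIE1 and KDR lay above both PBS arrays, PECAM1 below both, and 6 overlapped. Of 7 pericyte and smooth muscle markers 3 were matched, and their summed signals were 4619 and 7518 with PBS and 9098 and 8383 with rhLH, higher on both rhLH arrays. Among these 3, TAGLN, an actin-binding protein of smooth muscle, had 2668 and 2568 with PBS and 6118 and 6561 with rhLH (log2 1.27, limma adjusted p = 0.919). MYH11 and CNN1 overlapped, and both were lower with rhLH than on PBS 2, so the higher sum does not hold for each marker. The median log2 difference over the 3 was 1.24 against PBS 1 and −0.009 against PBS 2. The part of these markers in the KLF4 values was not tested.

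KLF6, a growth-restraining factor that is quickly induced by injury and hormones, had 6 probe sets, and 4 of them had a negative and 2 a positive log2 difference. MmugDNA.26405.1.S1_at had signals of 2493 and 1785 with PBS and of 1446 and 1180 with rhLH, a 1.61-fold lower level (log2 −0.68, SE 0.34, 95% interval −1.53 to 0.16). Its partner from the same target, MmugDNA.26405.1.S1_s_at, had 787 and 296.4 with PBS and 296.3 and 279 with rhLH, so that PBS 2 and rhLH 3 were level and the difference of −0.72 came to −0.04 against PBS 2. MmugDNA.10762.1.S1_at was also lower on both rhLH arrays, at 18.9 and 116 against 232 and 152, but rhLH 3 lay far under the filter level and the rhLH arrays were 1.92 apart on the log2 scale. Leaving out rhLH 3 took its log2 difference from −1.59 to −0.63, and leaving out rhLH 4 took it to −2.55.

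The remaining KLF6 probe sets overlapped between the groups. MmugDNA.839.1.S1_at had 2490 and 2122 with PBS and 2556 and 1387 with rhLH, with the rhLH replicates at opposite ends. MmuSTS.3692.1.S1_at had 160.0 and 1729 with PBS and 898 and 686 with rhLH, which is 4.55-fold higher than PBS 1 and 2.18-fold lower than PBS 2. MmugDNA.26598.1.S1_at had 159 and 478 with PBS and 442 and 248 with rhLH. Against PBS 2 alone all 6 KLF6 probe sets were lower with rhLH, at log2 differences from −0.04 to −1.30.

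Probe sets of the same gene disagreed most on PBS 1. For each array the deviation of a probe set from the mean of the other 3 arrays was taken, and the range of that deviation over the probe sets of a gene. On PBS 1 this range was 4.0 log2 units for KLF6, 2.65 for CEBPA, 2.07 for GATA4, 1.09 for CEBPB and 0.98 for KLF4. All 5 genes had their widest range on this array, as had 68.8% of the 4433 genes with several kept probe sets, whose median range was 1.14 there and 0.48 to 0.60 on the other arrays. The second widest value, 3.03 for KLF6 on rhLH 3, includes the dim signal of 18.9.

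Taking a single PBS array as the control changed the calls. Without PBS 2, limma called 7 of the 20 probe sets higher, beside 13.1% of all kept probe sets, and 3 lower, beside 12.2%. The 7 were both probe sets of CEBPB, 2 of CEBPA, and those of FOXO1, GATA4 MmugDNA.16680.1.S1_at and KLF6 MmuSTS.3692.1.S1_at, and the 3 were KLF10 and 2 of KLF6. Without PBS 1 no such call was made. The median log2 difference in that fit was −0.34 over the 19 of these probe sets that were kept, beside −0.02 over all kept probe sets. In both fits the lone PBS array is assumed to vary like the rhLH arrays, and 1 of the 20, KLF6 MmugDNA.10762.1.S1_at, lay under the filter.

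Genes related to these factors were taken from 5 lists, each gene by its brightest kept probe set. In none of the lists did a gene pass the limma test (smallest adjusted p 0.919). Over 10998 genes, 16.3% had both rhLH signals above both PBS signals and 16.1% had them below, and the median log2 difference over them was 0.02, with −0.01 against PBS 1 and −0.002 against PBS 2.

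Of 34 further GATA, C/EBP, FOXO and KLF/SP family genes 23 were measured, and 6 of these lay below and 1 above both PBS arrays. The brightest were SP3 (log2 −0.67 against PBS 1 and 0.10 against PBS 2), KLF3 (−0.32 and −0.22) and SP1 (−0.25 and 0.10). SP1 and SP3 bind the same GC-rich sites as the KLFs. KLF3, with signals of 2490 and 2323 with PBS and 1985 and 2003 with rhLH, was among the 6 below, with KLF11, KLF12, KLF13, KLF8 and SP2, named here after their values were seen. The list median was −0.21, or −0.25 and −0.08 against the PBS arrays in turn.

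Of 31 partners and regulators 24 were measured, with 6 below and 0 above both PBS arrays and a median of 0.01 (−0.02 and −0.10). ATF4, a stress factor that dimerises with C/EBP proteins, differed by 1.38 and 0.07 against the PBS arrays, the kinase SGK1, which phosphorylates FOXO factors, by 0.86 and 0.05, and the 14-3-3 protein YWHAZ, which holds phosphorylated FOXO in the cytoplasm, by −0.06 and 0.31. TRIB1 and TRIB2, adaptors that direct C/EBPα protein to breakdown, are among the 6 below and were also chosen after their values were seen. A link between them and the CEBPA signals was not tested. TRIB1 had signals of 1729 and 1925 with PBS and of 696 and 1139 with rhLH, both lower (log2 −1.02, limma adjusted p = 0.919). TRIB2 had 3610 and 2410 with PBS and 1800 and 2301 with rhLH, also lower on both, by −0.82 and −0.24. ZFPM1 and ZFPM2, the cofactors of GATA4, were not matched.

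Of 24 ovarian genes known as targets of GATA or C/EBP factors 17 were measured, with 6 above and 4 below both PBS arrays and a median of 0.52 (1.02 against PBS 1 and −0.07 against PBS 2). The brightest were STAR (1.101 and −0.07), HSD3B2 (0.50 and 0.30) and INHA, the inhibin alpha subunit (2.22 and −0.31). At an unadjusted limma p under 0.05 stood 5 of the 17, beside 209 of 10998 genes. The list was chosen with earlier results of these data known, so these counts are not a test of it. Among these 5, named after their values were seen, CYP19A1 (3.10 and 1.13) and SFRP4 (1.60 and 0.92) lay above both PBS arrays. AREG (−0.93 and −1.60) and ADAMTS1 (−0.95 and −0.79), also among the 5, lay below both. HSD17B1 was the only gene of the 5 lists at least 2-fold apart between every rhLH and every PBS array. Its signals were 67.1 and 51.4 with PBS and 273 and 319 with rhLH. The PBS signals lay under the filter level, so it was kept only through its rhLH signals.

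Of 30 FOXO1 target genes 23 were measured, with 4 below and 1 above both PBS arrays and a median of −0.12 (0.11 and −0.15). The brightest were TXNIP, which binds thioredoxin (−0.01 and −0.86), CITED2, a CBP/p300 partner (0.34 and −0.57), and IGFBP1, an IGF-binding protein (−0.53 and 0.49). The 4 below (17.4%, beside 16.1% of all genes) were CCNG2, PMAIP1, SESN3 and BCL6. CAT was the 1 above (4.3%, beside 16.3%), and all of these were named after their values were seen. CAT had signals of 128 and 259 with PBS and of 333 and 319 with rhLH. CCNG2, a cyclin linked to cell cycle arrest, had signals of 382 and 347 with PBS and of 191 and 189 with rhLH.

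Of 15 glucocorticoid and progestin response genes 12 were measured, with 2 above and 1 below both PBS arrays. The list is of the kind of stimulus to which CEBPD responds. Its median was 0.37, with 0.87 against PBS 1 and −0.30 against PBS 2. The brightest were HSD11B1, which activates glucocorticoids (0.65 and 0.03), the phosphatase DUSP1 (0.67 and −0.63) and TSC22D3 (0.87 and 0.11).

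**Figure D4:**
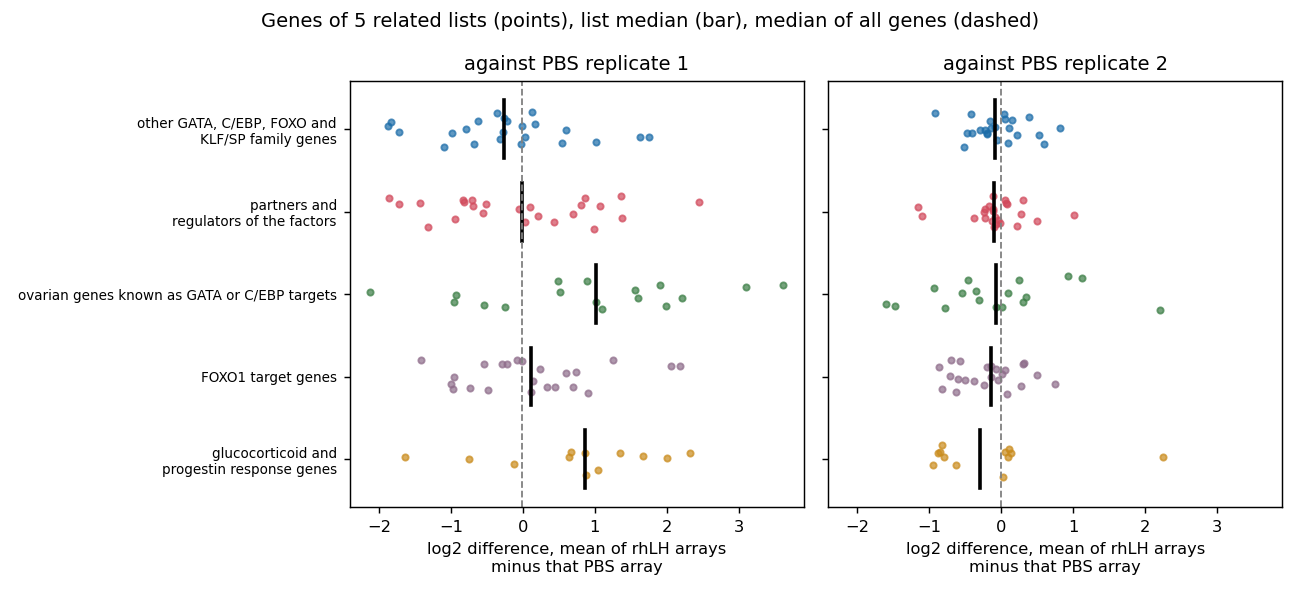
Log2 difference (x axis) of the mean of the rhLH arrays from PBS 1 (left) and PBS 2 (right) for the measured genes (points) of the 5 lists (y axis), with list medians as bars and the median of all genes as a dashed line. The target list's median lies at 1.02 on the left and at −0.07 on the right, and that of the glucocorticoid list at 0.87 and −0.30. Points are spread vertically at random for legibility.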

How the data were processed

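The authors deposited an intensity per probe set, which per the labels is a raw MAS5 signal (linear scale). How it was scaled or filtered is not given in the sources used here. The 2% trimmed means of the 4 arrays agreed (500.0), so no further normalization was applied. The distribution of signals still differed, with a median of 186 on PBS 1 and of 136 to 140 on the other arrays. The 99th percentile was 8886 on PBS 1 and 12091 to 12459 on the others. The part of this mismatch in the differences against PBS 1 was not tested. Signals entered as log2(signal + 16). Of 52865 probe sets 99 controls were set aside, and 31659 with a mean log2 above the 40th percentile were kept. Symbols came from GEO's platform annotation, which can be old: 24956 probe sets had 1, 361 several and 27449 none.

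Groups followed the sample titles. The test was two-sided, from limma 3.58.1 under R 4.3.3 (lmFit, then eBayes with trended prior). It used Benjamini-Hochberg adjustment across the kept probe sets and a threshold of 0.05. The code was run on simulated data only to check that it returned an added change. The simulated noise was independent between probe sets, so that run does not show how the test behaves on these arrays. SEs and 95% intervals are limma's, and SDs are over 2 arrays. The number of arrays limits the precision. Every probe set of the 9 genes is named. From each list the 3 brightest genes and any gene past the test or the 2-fold rule are named, and others are marked. The genes and lists were chosen with earlier results of these data known. Alternatives covered normalization, pseudocount, filter, variance prior, array weights and leaving out each array. No sequences or coordinates were used here.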

Additional observations from a re-analysis of the deposited data

How the results depend on the processing

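Under the 8 alternatives that kept all 4 arrays, 0 probe sets passed the limma threshold. Of the 20 probe sets, 9 kept the sign of their difference under every alternative in which they were kept and 11 did not. After quantile normalization GATA6 moved to −0.097 and KLF4 MmugDNA.26876.1.S1_at to 0.064. Centring arrays on their medians shifted the median of all kept probe sets from −0.04 to 0.19 and turned CEBPD (0.0059) and the same KLF4 probe set (0.074), leaving 12 of 20 positive in place of 10. The numbers of probe sets at least 2-fold higher and lower were 109 and 155. They became 65 and 58 with a pseudocount of 64 and 378 and 798 with no filter. With a filter at the 70th percentile they became 42 and 19, and with centring the higher count became 175. Leaving out an array makes this rule easier to meet, because fewer pairs of arrays must pass it. Leaving out each array in turn gave 0 to 8027 limma calls, 189 to 3924 probe sets 2-fold higher and 312 to 4631 lower, and a median over the 20 of −0.34 to 0.44. In those fits the log2 differences ran as follows: −0.26 to 1.16 for GATA4 MmugDNA.16680.1.S1_at, −0.42 to 0.53 for GATA6 MmuSTS.4822.1.S1_at, −0.31 to 1.03 for FOXO1 MmugDNA.34777.1.S1_at, −0.17 to 1.27 for CEBPA MmunewRS.760.1.S1_at, −0.34 to 1.13 for CEBPB MmugDNA.9809.1.S1_s_at, −0.68 to 2.11 for CEBPB MmugDNA.9809.1.S1_at, −1.24 to 0.80 for CEBPD MmugDNA.29934.1.S1_at, −0.75 to 0.44 for KLF4 MmugDNA.26876.1.S1_at, −0.72 to 0.15 for KLF6 MmugDNA.839.1.S1_at, −1.12 to 2.19 for KLF6 MmuSTS.3692.1.S1_at, −0.51 to 0.99 for KLF6 MmugDNA.26598.1.S1_at. For KLF6 MmugDNA.839.1.S1_at the sign turned without rhLH replicate 4 alone. For the other 10 it turned without a PBS array, and for KLF4 MmugDNA.26876.1.S1_at and KLF6 MmugDNA.26598.1.S1_at also without rhLH replicate 3. Of these 12 alternatives only the fit without PBS replicate 2 made calls; the cause was not tested.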

Other observations

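PBS replicate 2 was the highest array for 9 of the 20 probe sets of these factors, beside 20.8% of all kept probe sets. Of the 12 measured genes of the glucocorticoid and progestin list, 5 had PBS replicate 1 lowest, PBS replicate 2 highest and both rhLH arrays between them, 2 had the reverse order of the PBS arrays and the other 5 had neither. The genes with PBS replicate 2 highest in this way were DUSP1, FKBP5, ZBTB16, PER1 and ZFP36, chosen after their values were seen and because of this order. FKBP5, a chaperone partner of the glucocorticoid receptor, had signals of 198 and 1475 with PBS and of 830 and 860 with rhLH. ZBTB16, a repressor induced by glucocorticoids, had 182 and 1732 with PBS and 973 with rhLH on both arrays. PER1, a clock gene, had 298 and 1425 with PBS and 785 on both rhLH arrays, and ZFP36, which promotes mRNA decay, had 262 and 1621 with PBS and 770 and 984 with rhLH. The genes with the reverse order were SLC19A2, a thiamine transporter, and NR3C1, the glucocorticoid receptor. SLC19A2 had signals of 1299 and 73.3 with PBS and of 374 and 445 with rhLH. NR3C1 had 1416 and 1216 with PBS and 1240.5 and 1361 with rhLH. The order with PBS replicate 2 highest also held for 5 of 17 ovarian targets and 6 of 24 partners and regulators. It held for 5 of 23 FOXO1 targets and 1 of 23 further family genes. The reverse order held for 1, 3, 0 and 4 genes of these lists in turn. The share over all genes was not counted, so these counts cannot be set against a background. PBS replicate 1 was the lowest or highest array for 79.7% of 10998 genes. A link of this order to glucocorticoids or to CEBPD was not tested.

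PIK3R1, the regulatory subunit of the kinase upstream of AKT, had signals of 761 and 3630 with PBS and of 2090 and 1252 with rhLH. It was chosen after its values were seen, and its rhLH signals lay between the PBS signals. That order, with PBS replicate 1 lowest, held for 6 of the 24 measured partners and regulators, and the reverse for 3. A link to FOXO1 was not tested.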
